A study of Homo sapiens with 21 samples.

Results

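ZEB1, SNAI2, CD44, AXL, MET, FN1, CDH11 and CAV1 are 8 genes of the mesenchymal and invasive state of carcinoma cells, and their RNAs were followed here as targets of the RNA-binding protein HNRNPK. Every HNRNPK cluster carrying one of these 8 gene names was taken, which gave 1136 of 778762 clusters, over 8 of the 18322 genes with a cluster. A cluster is a short stretch of RNA covered by overlapping reads in which T-to-C changes mark crosslinking. The clusters come from PAR-CLIP, in which cells take up 4-thiouridine (4SU), ultraviolet light links it to bound protein, and sequencing then shows C at the linked base where the genome has T.

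All libraries came from MDA-MB-231, a long-established cell line of triple-negative breast cancer. Parental cells were compared with KRT19 KO cells, in which the gene of keratin 19, a protein of the intermediate filaments, had been disrupted with CRISPR/Cas9. Whether the KRT19 KO cells are 1 clone is not given in the sources used here. Both were labelled with 4SU and split into a cytoplasmic and a nuclear fraction, and HNRNPK was precipitated with an anti-HNRNPK/J antibody. There is 1 library for each of the 4 conditions, so no difference below has a replicate check, no test between conditions was run, and intervals cover counting error only. Cluster reads move with the amount of an RNA as well as with its binding, and these cannot be told apart here, because RNA levels were not analysed.

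HNRNPK is a nuclear and cytoplasmic protein that recognises stretches rich in cytidine. In introns it is known as a regulator of splicing, and in 3'UTRs as a regulator of mRNA stability and translation. The epithelial-to-mesenchymal transition, by which carcinoma cells lose cell contacts and become motile, is driven by transcription factors such as ZEB1 and SNAI2. CD44, AXL and MET are cell surface receptors of invasive cells, FN1 and CDH11 encode matrix and adhesion proteins, and CAV1 encodes the main coat protein of caveolae. MDA-MB-231 is known as a line of this mesenchymal type.

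The sites with the most reads show what HNRNPK contacted in these RNAs. For each gene other than SNAI2 the stretch of at most 30 nt with the most cytidine is given for the 2 sites with the most reads over the 4 libraries, from the cluster sequence, which equals GRCh37 on the strand of the gene. Capitals mark 6 words, chosen here as short C-rich elements and not spelled out by the study, which names C/U-rich sequence in general. They can overlap and are TTCCC with its neighbour TCCCC, the word TACCC, the word ATCCC, the word ACCCC and finally the word AACCC. They were searched on the sense strand alone, the strand of the RNA. The stretches are shown because these sites held the most reads, whether or not they differed between libraries.
ZEB1 3'UTR, chr10:31817163-31817192, plus strand: tcaaaaTTCCCaaataaaacttaaaaccac
ZEB1 intron 1, chr10:31646784-31646813, plus strand: ctttatccataatatttcctttATCCCaac
CD44 3'UTR, first site, chr11:35252256-35252285, plus strand: cctctaacctcatattttctcccacttggc
CD44 3'UTR, second site, chr11:35252616-35252645, plus strand: cTCCCCtccctctctccctccacttcaccc
AXL 3'UTR, chr19:41765935-41765964, plus strand: cccacctccATCCCagacaggtcccTCCCC
AXL intron 10, chr19:41746577-41746606, plus strand: attccaccctcctttcacatatATCCCatt
MET intron 2, chr7:116343425-116343454, plus strand: cctcctccttTACCCattcatcaatcaacc
MET intron 1, chr7:116338537-116338566, plus strand: cataccattcctctccacacaaaatcctat
FN1 coding exon 9, chr2:216288171-216288200, minus strand: ccccttcctatacaacaaccacaattacac
FN1 intron 41, chr2:216232863-216232892, minus strand: atagaacagatgaatgcctcttaatcctcc
CDH11 intron 7, chr16:65019916-65019945, minus strand: tttcctaatttattcacccatttttccacc
CDH11 3'UTR, chr16:64978911-64978940, minus strand: ttaattcatcaaaatcttattttataaacc
CAV1 3'UTR, first site, chr7:116200000-116200029, plus strand: cttcctgtttttcacattttccttttcaaa
CAV1 3'UTR, second site, chr7:116199391-116199420, plus strand: tcctggtgccaatttcaagttccaagttgc

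The cytidine share of these stretches ranged widely. It was 66.7% in the second CD44 site and 60.0% in the AXL 3'UTR site, and 16.7% in the CDH11 3'UTR site. Both CAV1 3'UTR stretches held 26.7% cytidine and none of the 6 words. Of all clusters of the 8 genes, 31.5% (26.7 to 36.7%, Wilson 95% interval) held a word in parental cytoplasm, 33.9% (28.3 to 39.9%) in KRT19 KO cytoplasm, 32.9% (27.7 to 38.5%) in parental nuclei and 36.8% (31.3 to 42.6%) in KRT19 KO nuclei. The shares over all clusters of the same libraries were 29.8%, 30.1%, 32.9% and 33.6%, each inside the interval of the 8 genes. The share of AXL was 33.3% of 21 clusters in parental cytoplasm, 51.7% of 29 in KRT19 KO cytoplasm, 48.6% of 37 in parental nuclei and 54.5% of 33 in KRT19 KO nuclei. It was the highest of the genes with at least 20 clusters in the last 3 libraries, and in parental cytoplasm it was below CAV1 with 39.5% of 38 and MET with 36.2% of 94.

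Clusters held 5551612 reads in parental cytoplasm, 6216226 in KRT19 KO cytoplasm, 3537577 in parental nuclei and 3252800 in KRT19 KO nuclei. The 8 genes together held 9473, 8937, 6943 and 5111 of them. Intron clusters took 42.3% of all reads in parental cytoplasm and 23.0% in KRT19 KO cytoplasm, against 67.0% and 59.7% in the nuclei, so the cytoplasmic libraries differ in their content of intronic RNA. The part of this in the results was not tested, and ratios are therefore given over all reads and within 3'UTR and intron reads. The single cluster with the most reads, in an intron of SLCO5A1, took 5.83% of the reads of parental cytoplasm. It held 323758 of the 2351033 intron reads of this library, which lowers the share of every other gene within them. Ratios within intron reads were not repeated without this cluster. KRT19 had 7 and 5 reads in the parental and KRT19 KO cytoplasmic libraries and no cluster in the nuclei, too few to check the genotype. As to the labelled cell type, the mesenchymal marker VIM had 207 and 282 reads in parental and KRT19 KO cytoplasm. Of the epithelial markers CDH1, EPCAM, ESRP1, GRHL2, CLDN3, CLDN4 and CLDN7, none had more than 43 reads in a cytoplasmic library. CDH1, which encodes E-cadherin, had 6 reads in KRT19 KO nuclei alone. TJP1 with 1358 and 935 and DSP with 106 and 965 cytoplasmic reads are not among these markers. They had the most reads of a wider list of 15 epithelial genes, so that list did not all point one way.

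ZEB1, CD44, AXL, MET and CAV1 carried most of the reads. Scaled to 1000000 cluster reads per library (RPM), a level that is not corrected for length, these 5 genes lay between the percentiles 87.3 and 98.8 of the genes with a cluster in each of the 4 libraries. CDH11 lay between the percentiles 62.1 and 93.0, and FN1 and SNAI2 lay at 61.5 or below. SNAI2 had no cluster in parental nuclei. A gene without a cluster can still be bound below the limit of the caller, since the smallest cluster held 5 reads and 4 reads with a T-to-C change.

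**Figure D1:**
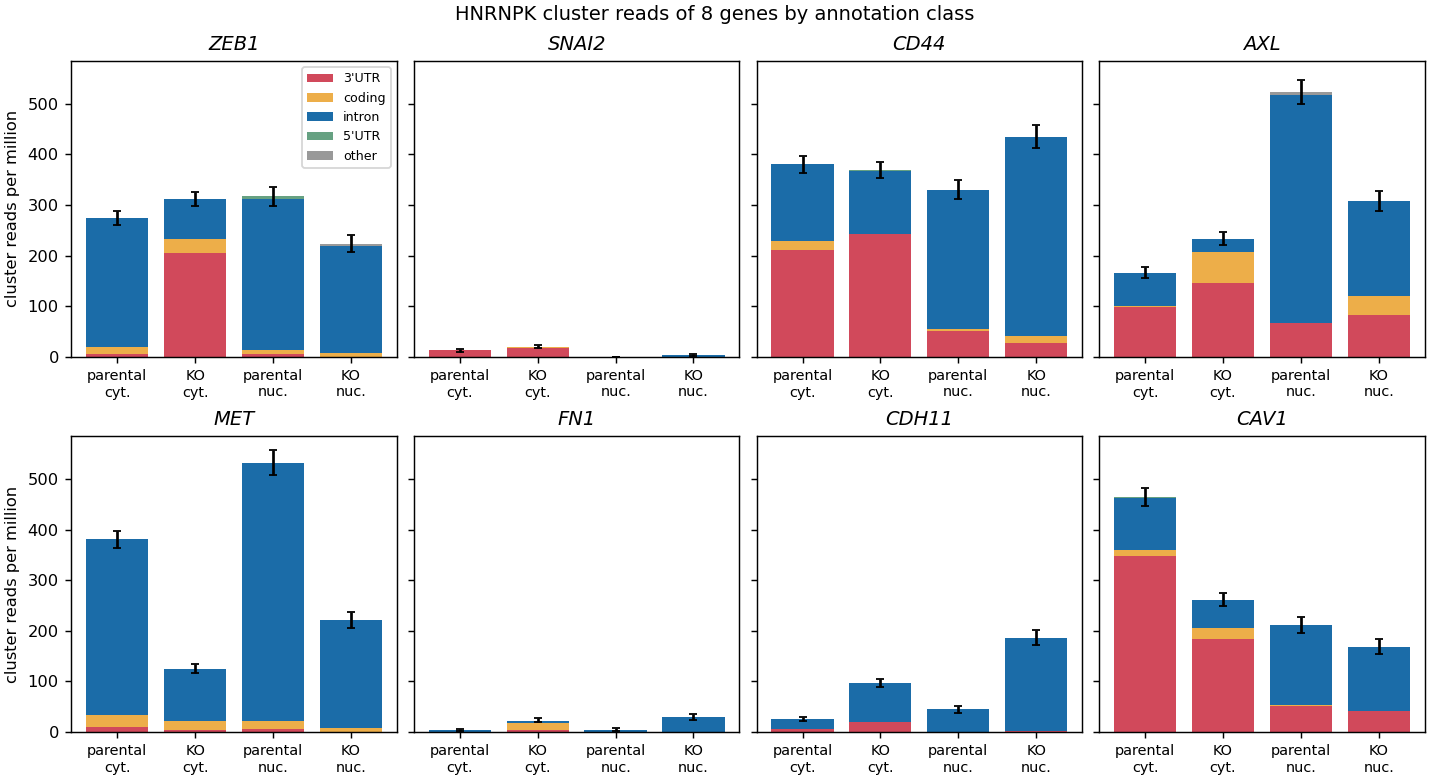
Bars show the cluster reads of each gene scaled to 1000000 cluster reads of the library (RPM), stacked by annotation class, and error bars show the exact Poisson 95% interval of the total. MET is nearly all intronic in each library, ZEB1 turns from intronic to 3'UTR reads in KRT19 KO cytoplasm, and CAV1 has most of its cytoplasmic reads in the 3'UTR.

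Set per kb of annotated 3'UTR, CAV1 had the highest density in parental cytoplasm, 184 RPM per kb (176 to 192), followed by CD44 with 68.7 (64.8 to 72.7) and AXL with 52.7 (48.4 to 57.3). SNAI2 with 10.4 (8.13 to 13.2) and MET with 3.76 (2.76 to 5.00) came next. MET did not differ from ZEB1 with 2.20 (1.49 to 3.12) beyond their counting intervals, nor did ZEB1 from CDH11 with 1.22 (0.795 to 1.78), and FN1 had no 3'UTR cluster. The median over all genes with a 3'UTR cluster in this library was 5.28 RPM per kb. In KRT19 KO cytoplasm CAV1 led again with 96.6 (91.1 to 102), and ZEB1 with 80.6 (76.3 to 85.2), CD44 with 79.0 (75.1 to 83.1) and AXL with 77.8 (72.8 to 83.0) followed with overlapping intervals. In the nuclei AXL had the densest 3'UTR of the 8 genes, 35.8 RPM per kb (31.4 to 40.7) in the parental and 44.6 (39.4 to 50.2) in the KRT19 KO library.

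Per kb of intron the order was another one. AXL led in parental nuclei with 11.9 RPM per kb (11.4 to 12.5), at percentile 99.3 of the genes with intron clusters. CAV1 with 4.69 (4.31 to 5.10) and MET with 4.28 (4.08 to 4.48) followed without separating, then CD44 with 3.13 (2.93 to 3.33) and ZEB1 with 1.46 (1.37 to 1.55). CDH11 with 0.259 (0.220 to 0.302) and FN1 with 0.0635 (0.0355 to 0.105) lay below the median of 0.732 over all genes. In KRT19 KO nuclei AXL and CD44 had overlapping intervals, 4.97 (4.58 to 5.38) and 4.47 (4.23 to 4.73).

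The first comparison asks how the crosslinked RNA of the 8 genes differed between KRT19 KO and parental cells in the cytoplasm. A gene was counted as higher or lower when the log2 ratio of its shares of library reads, with 5 reads added to each count, passed 2-fold, and genes with at least 50 reads in both libraries together were assessed. FN1 and CDH11 were higher in KRT19 KO cytoplasm and MET was lower, while ZEB1, SNAI2, CD44, AXL and CAV1 stayed within 2-fold. Over all 9378 assessed genes, 19.6% were higher and 21.4% were lower, 41 percent in either direction, so that 3 of 8 is close to the background. Ratios below are printed without the added reads and with exact 95% counting intervals.

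In the nuclei the same 3 genes passed 2-fold in the same direction, but FN1, with 3 and 13 unique reads, could not be assessed when unique reads were counted. This left 2 of 6, against 17.4% of all genes in either direction by unique reads. SNAI2 had too few reads, and 7 genes were assessed. By all reads the background over 9371 genes was 13.4% higher, 16.7% lower and 30.1% in either direction. The cytoplasmic and nuclear ratios come from separate libraries of the same 2 cell lines, and with 1 library each neither is a replicate of the other.

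**Figure D2:**
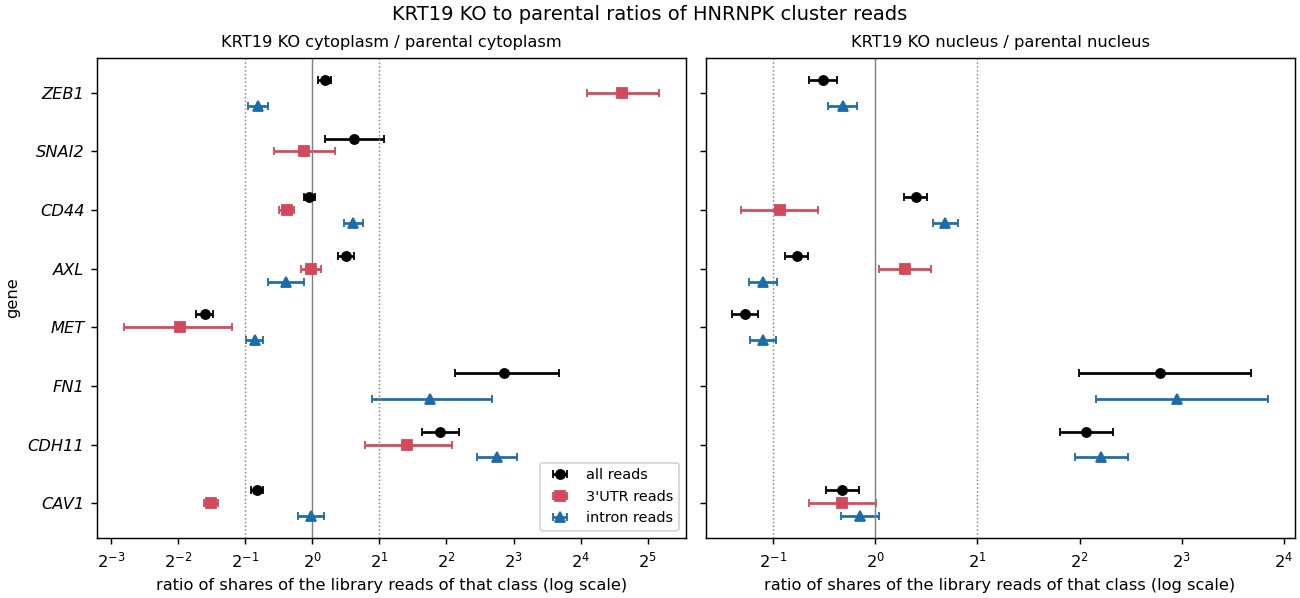
Points show the ratio of KRT19 KO to parental shares of library reads on a log axis, over all reads, within 3'UTR reads and within intron reads, with 95% counting intervals, for genes with at least 50 reads in both libraries together and reads in each. Dotted lines mark 2-fold; ZEB1 has 3'UTR and intron points on opposite sides of 1 in cytoplasm, and FN1 and CDH11 lie above 2-fold over all reads in both panels.

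ZEB1, a zinc finger repressor of epithelial genes such as CDH1, lies on chromosome 10 from 31608145 to 31818732 on the plus strand. It had 1524 reads in parental cytoplasm, 1937 in KRT19 KO cytoplasm, 1121 in parental nuclei and 725 in KRT19 KO nuclei. The 2 cytoplasmic totals are close, with a KRT19 KO to parental ratio of 1.14 (1.06 to 1.21), but they are made of different reads. Intron reads were 1416 in parental and 492 in KRT19 KO cytoplasm, and 3'UTR reads were 31 and 1273.

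Within 3'UTR reads the ratio of ZEB1 was 24.5 (17.2 to 36.2), at percentile 98.7 of the 4788 genes assessed, of which 24.8% were higher, 19.9% were lower and 44.7% passed in either direction. Within intron reads it was 0.571 (0.514 to 0.633), which is inside 2-fold, where the background over 6399 genes was 20.1% higher, 13.5% lower and 33.5% in either direction. Whether the intron ratio stays inside 2-fold without the large SLCO5A1 cluster in the parental intron total was not tested. The 3'UTR call rested on 1 site, 985 nt after the stop codon, without which 31 and 84 reads gave a ratio of 1.62 (1.06 to 2.52), inside 2-fold. That site had no cluster in parental cytoplasm, 1189 reads in KRT19 KO cytoplasm, 21 in parental nuclei and no cluster in KRT19 KO nuclei. Its 1189 reads comprised 534 unique reads, and 61.1% of them had a T-to-C change.

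The nearest parental cytoplasmic cluster of ZEB1 lay 42 nt away with 31 reads. Without this site ZEB1 had 748 reads in KRT19 KO cytoplasm against 1524 in parental cytoplasm, a log2 ratio of -1.18 in place of 0.18, so the site alone decides on which side of 1 the gene lies. A site of many reads in 1 cytoplasm and no cluster in the other was not rare. Of 1432 sites over all genes with at least 500 reads in KRT19 KO cytoplasm, 310 (21.6%) had no cluster in parental cytoplasm, and of 802 such sites in parental cytoplasm 92 (11.5%) had none in KRT19 KO cytoplasm. Among the 8 genes this applied to 1 of 4 and 1 of 3 sites. With at least 200 but fewer than 500 reads in KRT19 KO cytoplasm, 689 of 2493 sites (27.6%) had no parental cytoplasmic cluster. Among the 8 genes 3 of 4 such sites had none, and sites of CD44, AXL and CDH11 of this kind are given below. In parental cytoplasm 263 of 1622 such sites (16.2%) had no cluster in KRT19 KO cytoplasm, and 0 of 3 among the 8 genes. The counts of the 8 genes are small and were not tested.

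The introns of ZEB1 held 165 sites, of which 124 (75.2%) were in intron 1, and this intron makes up 69.3% of the intron length. Intron 1 had 1180 reads in parental cytoplasm, 392 in KRT19 KO cytoplasm, 927 in parental nuclei and 618 in KRT19 KO nuclei. Its strongest site had 89, 42, 121 and 26 reads in the same order. The parental library was higher than the KRT19 KO library in each fraction at this site. A coding site in exon 7, chosen after its values were seen, had 77, 149, 28 and 12 reads and was found in all 4 libraries.

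SNAI2, a zinc finger factor of the same transition, is a short gene on chromosome 8 from 49830157 to 49833988 on the minus strand. It had 70 reads in parental cytoplasm and 121 in KRT19 KO cytoplasm, no cluster in parental nuclei and 11 reads in KRT19 KO nuclei. Its reads were thus nearly all cytoplasmic, and 70 and 108 of them lay in the 3'UTR. The strongest site, 713 nt after the stop codon, had 70 reads in parental and 69 in KRT19 KO cytoplasm. A second 3'UTR site, 791 nt after the stop codon, had 20 reads in KRT19 KO cytoplasm and no cluster elsewhere.

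The KRT19 KO to parental ratio of SNAI2 in cytoplasm was 1.54 (1.14 to 2.10) over all reads and 0.920 (0.674 to 1.26) within 3'UTR reads, neither past 2-fold. Its strongest site held all parental reads, and without it 52 reads in KRT19 KO cytoplasm stood against no parental cluster. None of its 7 clusters held one of the motif words.

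CD44, the receptor of the matrix polysaccharide hyaluronan, lies on chromosome 11 from 35160718 to 35253949 on the plus strand. It had 2111 reads in parental cytoplasm, 2293 in KRT19 KO cytoplasm, 1168 in parental nuclei and 1413 in KRT19 KO nuclei. The KRT19 KO to parental ratio was 0.970 (0.914 to 1.03) in cytoplasm and 1.32 (1.22 to 1.42) in nuclei, both within 2-fold. Over all reads CD44 thus showed the smallest cytoplasmic difference of the 8 genes, and the counting interval included 1. Under scaling by the median ratio over genes its log2 ratio turned from -0.04 to 0.04. Within cytoplasmic 3'UTR reads the CD44 ratio was 0.768 (0.711 to 0.829), and AXL with 0.984 and SNAI2 with 0.920 lay nearer to 1. Within intron reads, given below, CD44 lay on the other side of 1.

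The 2 leading CD44 sites lie in the 3'UTR, 1389 and 1773 nt after the stop codon. The first had 504 and 579 reads in parental and KRT19 KO cytoplasm and 46 in each nuclear library. The second had 430 and 409 reads in the cytoplasmic libraries, no cluster in parental nuclei and 26 reads in KRT19 KO nuclei. At both sites the cytoplasmic libraries were close and the nuclear libraries were low.

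Elsewhere in CD44 the libraries differed. A 3'UTR site 331 nt after the stop codon, chosen after its values were seen, had 252 reads in KRT19 KO cytoplasm and no cluster in the other 3 libraries. A site 57 nt after the stop codon, chosen in the same way, had 88 reads in parental nuclei alone. The 3'UTR of CD44 held 24 sites, the most of the 8 genes, and its introns held 142. Within intron reads the KRT19 KO to parental ratio was 1.53 (1.38 to 1.69) in cytoplasm and 1.61 (1.48 to 1.75) in nuclei, within 2-fold in both.

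**Figure D3:**
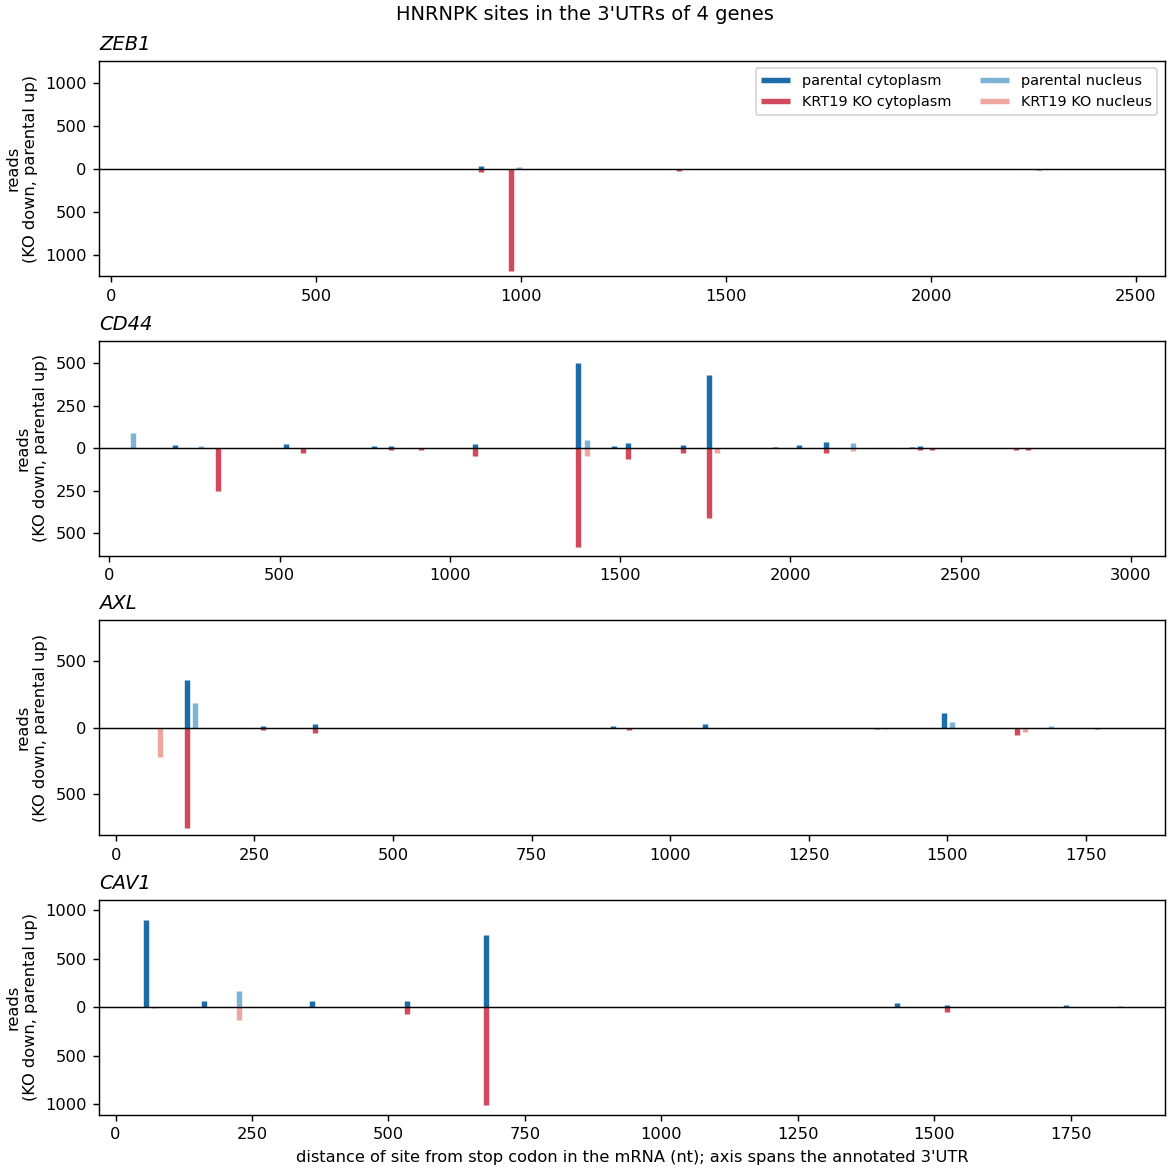
Lines show the reads of each merged 3'UTR site against its distance from the stop codon in nt, with parental libraries drawn upward and KRT19 KO libraries downward, dark for cytoplasm and pale for nuclei, set slightly apart. The ZEB1 site of 1189 reads and the CAV1 site of 904 reads appear in 1 cytoplasmic library, whereas the leading CD44 sites appear in both.

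AXL, a receptor tyrosine kinase that binds GAS6, lies on chromosome 19 from 41725128 to 41767671 on the plus strand. It had 919 reads in parental cytoplasm, 1451 in KRT19 KO cytoplasm, 1853 in parental nuclei and 1000 in KRT19 KO nuclei. Over all reads the KRT19 KO to parental ratio was 1.41 (1.30 to 1.53) in cytoplasm and 0.587 (0.543 to 0.634) in nuclei. Both were within 2-fold and on opposite sides of 1. Within cytoplasmic 3'UTR reads it was 0.984 (0.884 to 1.10) and within cytoplasmic intron reads 0.763 (0.631 to 0.921), so neither class lay above 1. The nuclear ratio within intron reads, 0.467 (0.425 to 0.513), was past 2-fold, where the background over 7589 genes was 14.7% higher, 13.7% lower and 28.4% in either direction.

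The leading AXL site, 135 nt after the stop codon, had 357 and 756 reads in parental and KRT19 KO cytoplasm, 184 in parental nuclei and no cluster in KRT19 KO nuclei. KRT19 KO nuclei had instead a cluster of 220 reads 23 nt away, so that within 3'UTR reads the nuclear ratio was 1.22 (1.02 to 1.46). Merging by overlap counted these as separate sites.

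Intron 10 of AXL, 3162 nt long, held 8.36% of the intron length of the gene, 16 of its 54 intronic sites and 65.4% of its intronic reads. It had 272 reads in parental cytoplasm, 81 in KRT19 KO cytoplasm, 1049 in parental nuclei and 386 in KRT19 KO nuclei. Its leading site had 134, 30, 233 and 68 reads in the same order. In each fraction the parental library was the higher one. The intron was named as the one with the most reads of the gene, after its values were seen.

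Coding clusters of AXL were seen mostly in KRT19 KO cells, with 14 coding reads in parental cytoplasm and none called in parental nuclei, against 386 and 119 in the KRT19 KO libraries. A site in exon 7, named after its values were seen, had 203 reads in KRT19 KO cytoplasm and 90 in KRT19 KO nuclei and no cluster in either parental library. Coding reads made up 2.39% of all reads in parental and 6.19% in KRT19 KO cytoplasm, and 2.39% and 4.47% in the nuclei. Coding clusters were 2.93% and 4.98% of all clusters in cytoplasm, but 1.70% and 1.56% in the nuclei. In KRT19 KO nuclei a coding cluster of the mitochondrial gene MT-ND2 held 37762 reads. The higher coding share of KRT19 KO libraries was thus seen by clusters in cytoplasm alone.

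MET, the receptor of hepatocyte growth factor, lies on chromosome 7 from 116312250 to 116438431 on the plus strand. It had 2112 reads in parental cytoplasm, 775 in KRT19 KO cytoplasm, 1883 in parental nuclei and 716 in KRT19 KO nuclei. Both KRT19 KO libraries were lower than both parental libraries. The ratio was 0.328 (0.301 to 0.356) in cytoplasm and 0.414 (0.379 to 0.451) in nuclei, both past 2-fold.

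Between 83.5% and 96.4% of the MET reads were intronic in the 4 libraries. Within intron reads the ratio was 0.551 (0.503 to 0.603) in cytoplasm, inside 2-fold, and 0.466 (0.426 to 0.509) in nuclei, past it. The parental cytoplasmic intron total includes the large SLCO5A1 cluster, and whether the cytoplasmic ratio stays inside 2-fold without it was not tested. The KRT19 KO cytoplasmic library also had the lower share of intron reads over all genes, and the part of this in the MET ratio was not tested beyond the ratio within intron reads. Within 3'UTR reads, 47 in parental and 20 in KRT19 KO cytoplasm, the ratio was 0.254 (0.142 to 0.436).

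The strongest MET site, in intron 2, had 268 reads in parental cytoplasm, 78 in KRT19 KO cytoplasm, 96 in parental nuclei and 51 in KRT19 KO nuclei. The second, in intron 1, had 66, 69, 43 and 7 reads, nearly equal in the cytoplasmic libraries. MET held the most sites of the 8 genes, 179, and no single site took more than 12.7% of its reads in a library. The lower totals in KRT19 KO cells were spread over many sites. Of the MET sites, 101 were seen in parental libraries alone and 29 in KRT19 KO libraries alone. Among all 592021 sites of all genes these numbers were 254526 and 233514, and among the 349594 intronic sites 162326 and 122009. Parental libraries alone thus had more there too, by a smaller margin.

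**Figure D4:**
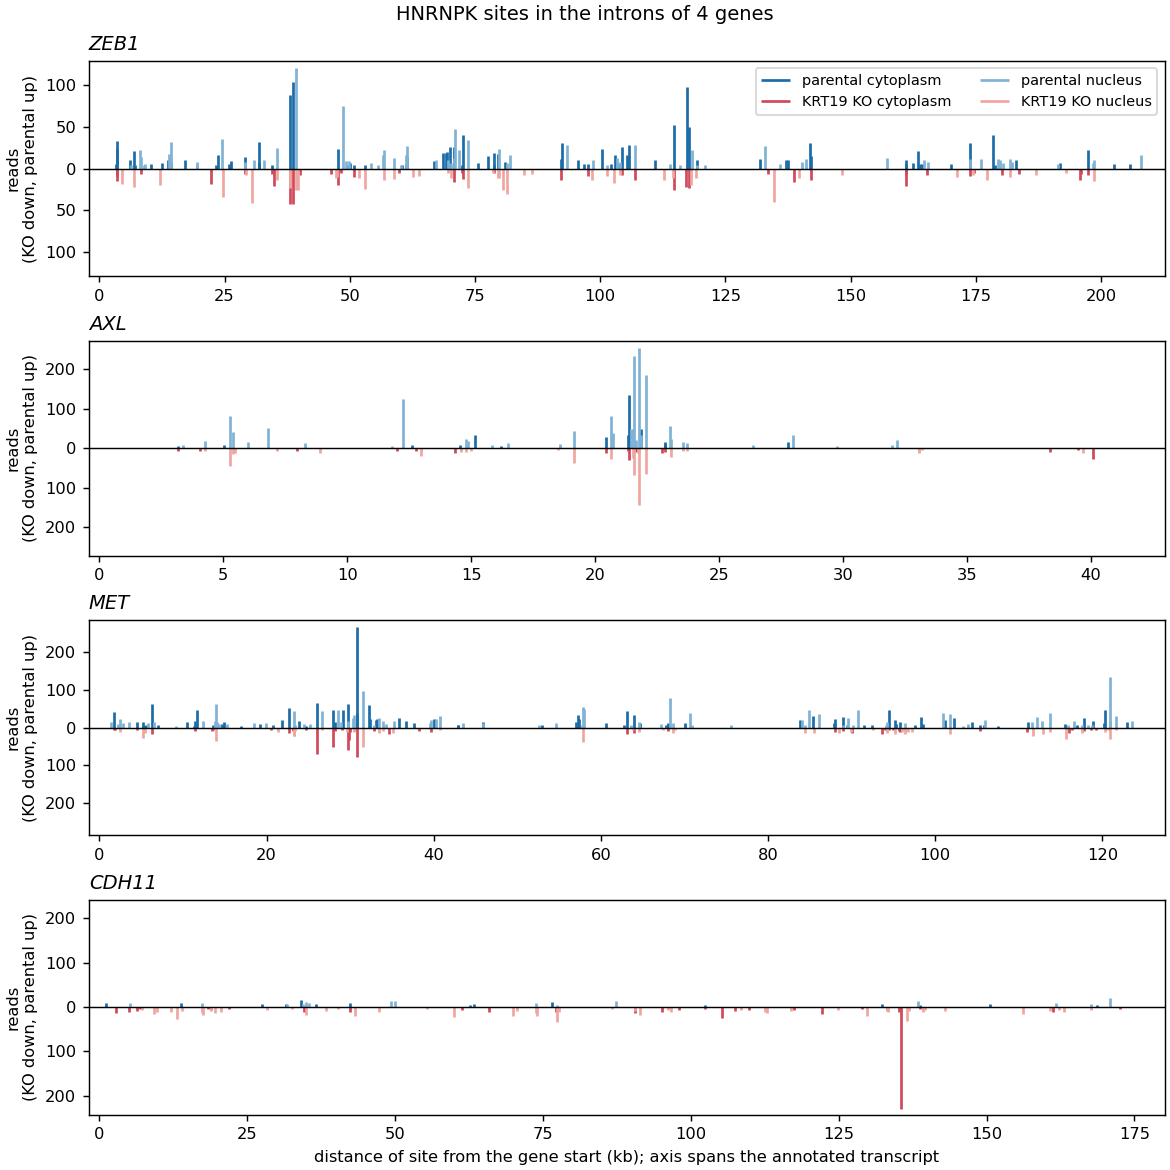
Lines show the reads of each merged intronic site against its distance from the gene start in kb, with parental libraries upward and KRT19 KO libraries downward, dark for cytoplasm and pale for nuclei, set slightly apart. AXL reads gather in intron 10, ZEB1 and MET sites are spread over the gene, and CDH11 has most of its reads in KRT19 KO libraries.

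FN1, which encodes the matrix protein fibronectin, lies on chromosome 2 from 216225588 to 216300791 on the minus strand. It had 17 reads in parental cytoplasm, 138 in KRT19 KO cytoplasm, 15 in parental nuclei and 95 in KRT19 KO nuclei. Both KRT19 KO libraries were higher than both parental libraries, with a ratio of 7.25 (4.37 to 12.8) in cytoplasm and 6.89 (3.97 to 12.8) in nuclei. These totals rest on 14 clusters, and 2 of them were found in each parental library.

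The leading FN1 site, in coding exon 9, had 77 reads in KRT19 KO cytoplasm, 38 of them unique, and no cluster in the other 3 libraries. The second, in intron 41, had 5 reads in parental nuclei and 45 in KRT19 KO nuclei, of which 5 were unique. Within intron reads the ratio was 3.38 (1.84 to 6.44) in cytoplasm and 7.73 (4.46 to 14.3) in nuclei. FN1 has a long mRNA, and its 3'UTR had 1 site, with 16 reads in KRT19 KO cytoplasm.

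CDH11, a cadherin of mesenchymal cells, lies on chromosome 16 from 64977656 to 65155966 on the minus strand. It had 142 reads in parental cytoplasm, 596 in KRT19 KO cytoplasm, 157 in parental nuclei and 603 in KRT19 KO nuclei. The ratio of KRT19 KO to parental was 3.75 (3.12 to 4.53) in cytoplasm and 4.18 (3.50 to 5.01) in nuclei. Within intron reads it was 6.71 (5.47 to 8.30) and 4.62 (3.87 to 5.55), and within cytoplasmic 3'UTR reads 2.66 (1.73 to 4.24).

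The leading CDH11 site, in intron 7, had 230 reads in KRT19 KO cytoplasm, 32 in KRT19 KO nuclei and no cluster in parental libraries. Without it CDH11 still had 366 reads in KRT19 KO against 142 in parental cytoplasm, and 571 against 157 in the nuclei. The leading 3'UTR site, 2580 nt after the stop codon, had 19 reads in parental and 62 in KRT19 KO cytoplasm. Of the 98 CDH11 sites, 67 were seen in KRT19 KO libraries alone and 21 in parental libraries alone. Among all 592021 sites of all genes these numbers were 233514 and 254526, and among the 349594 intronic sites 122009 and 162326. CDH11 thus differed in the opposite direction to MET, with higher counts in KRT19 KO libraries over many sites. Unlike in MET, a single site held 38.6% of its reads in KRT19 KO cytoplasm.

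CAV1, the scaffold protein caveolin-1, lies on chromosome 7 from 116165090 to 116201233 on the plus strand. It had 2578 reads in parental cytoplasm, 1626 in KRT19 KO cytoplasm, 746 in parental nuclei and 548 in KRT19 KO nuclei. The KRT19 KO to parental ratio was 0.563 (0.529 to 0.600) in cytoplasm and 0.799 (0.714 to 0.893) in nuclei, both within 2-fold. Within cytoplasmic 3'UTR reads it was 0.351 (0.326 to 0.378), past 2-fold, and within intron reads 0.983 (0.858 to 1.13).

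Its 3 leading 3'UTR sites differed in where they were seen. The first site, 687 nt after the stop codon, had 746 reads in parental and 1014 in KRT19 KO cytoplasm and no cluster in the nuclei. The second, 63 nt after the stop codon, had 904 reads in parental cytoplasm, 251 of them unique, no cluster in KRT19 KO cytoplasm or parental nuclei, and 6 reads in KRT19 KO nuclei. The third site, 219 nt after the stop codon and named after its values were seen, had 163 and 130 reads in parental and KRT19 KO nuclei and no cluster in either cytoplasm. Without the second site CAV1 had 1026 and 1136 3'UTR reads in parental and KRT19 KO cytoplasm, and the ratio within 3'UTR reads, 0.660 (0.606 to 0.718), came inside 2-fold. Without the first site the cytoplasmic log2 ratio of CAV1 over all reads was -1.74 in place of -0.83, past 2-fold. In introns, 52 of its 53 sites were in intron 2, which makes up 95.7% of its intron length.

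The second pair of comparisons asks how the fractions differed within a cell line. They use the same 4 libraries as the comparisons above and are not independent of them. In parental cells CAV1 was higher in cytoplasm than in nuclei, with a ratio of 2.20 (2.03 to 2.39), which came within 2-fold without its first 3'UTR site, at a log2 ratio of 0.64. SNAI2 was also counted as higher, with no ratio because it had no nuclear cluster. AXL was lower, with a ratio of 0.316 (0.292 to 0.342). Of 9590 assessed genes 17.8% were higher, 34.4% were lower and 52.1% passed in either direction, against 3 of 7 here.

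In KRT19 KO cells SNAI2 alone passed, with a cytoplasm to nucleus ratio of 5.76 (3.11 to 11.8), a call that ends without its leading site (log2 ratio 0.90), where the background over 9458 genes was 23.4% higher, 41.2% lower and 64.6% in either direction. Over all genes the median log2 ratio was -0.55 for the parental pair of libraries and -0.63 for the KRT19 KO pair, so values near 1 depend on the scaling. After scaling by the median ratio, ZEB1 and MET in parental cells and CD44, AXL and FN1 in KRT19 KO cells, which were lower in cytoplasm by share of reads, came out higher, and ZEB1 and CAV1 passed 2-fold as higher in KRT19 KO cytoplasm.

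Within 3'UTR reads ZEB1, AXL and MET were lower in parental cytoplasm than in parental nuclei, with ratios of 0.159 (0.0884 to 0.291), 0.249 (0.213 to 0.291) and 0.298 (0.168 to 0.553). These are ratios of shares, since 3'UTR reads as a whole were far fewer in the nuclear libraries. Over 3584 genes 29.9% were higher, 31 percent were lower and 60.8% passed in either direction, against 3 of 6 assessed here. In KRT19 KO cells ZEB1 was counted as higher, with 1273 cytoplasmic 3'UTR reads and no nuclear 3'UTR cluster. AXL with 0.200 (0.174 to 0.230) and CAV1 with 0.501 (0.419 to 0.603) were lower, and for CAV1 the log2 ratio with 5 reads added was -1.04, just past the limit. The background over 4232 genes was 21.1% higher, 33.7% lower and 54.8% in either direction.

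Between the nuclear libraries 3 genes had enough 3'UTR reads, and none passed 2-fold. The KRT19 KO to parental ratios were 0.523 (0.401 to 0.679) for CD44, 1.22 for AXL and 0.800 (0.636 to 1.00) for CAV1, where 24.9% of 1793 genes were higher, 24.3% were lower and 49.2% passed in either direction.

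Within intron reads AXL was lower in cytoplasm than in nuclei in both cell lines, with ratios of 0.224 (0.199 to 0.251) and 0.366 (0.306 to 0.436). The intron backgrounds were 8.18% higher, 24.9% lower and 33.1% in either direction over 7331 genes in parental cells, and 12.1% higher, 22.5% lower and 34.6% in either direction over 6711 genes in KRT19 KO cells. ZEB1, MET and CAV1 had intron ratios between 0.963 and 1.35, so that their share of intron reads was about as large in the cytoplasmic as in the nuclear libraries.

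Overlapping clusters of one strand, sharing 1 nt or more, were merged into 791 sites of the 8 genes. Of these, 247 (31.2%, 28.1 to 34.5%) were seen in 2 or more libraries and 18 in all 4, against 22.6% shared among all 592021 sites. Sharing rose with reads. Among sites of at least 100 reads, 93.6% of the 47 sites of the 8 genes and 92.3% of the 23471 sites of all genes were shared. The share over all sites therefore compares sites of different depth.

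Of the 791 sites, 310 were seen in cytoplasm alone, 303 in nuclei alone and 178 in both fractions. The 3'UTR sites were mostly cytoplasmic, 49 of 69 (71.0%), as were those of all genes (70.0%). Intronic sites of the 8 genes were seen in both fractions in 23.6% of 678 cases, against 18.6% over all intronic sites. The 18 sites found in all 4 libraries comprised 7 of MET, 4 of ZEB1, 3 each of CD44 and AXL and 1 of CAV1, and 15 of the 18 were intronic, 2 were coding and 1 was the first CD44 3'UTR site. CDH11 shared the fewest sites of the genes with over 20 sites, 15.3%, and AXL shared the most, 37.7%.

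**Figure D5:**
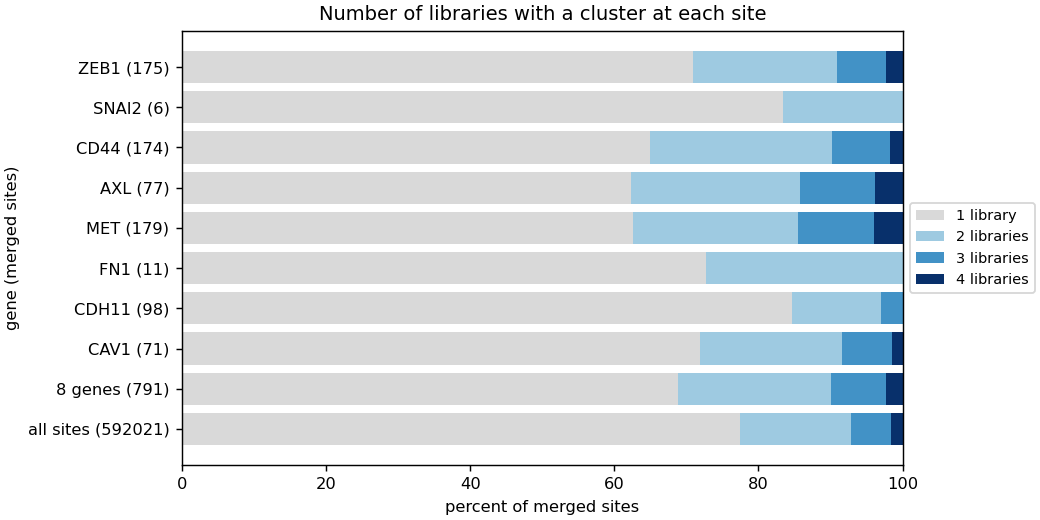
Bars show the percent of merged sites with a cluster in 1, 2, 3 or 4 libraries for each gene, for the 8 genes together and for all sites, with the number of sites in parentheses. Between 62.3% (AXL) and 84.7% (CDH11) of the sites of the genes with over 20 sites were seen in 1 library alone.

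Of the reads of the 8 genes, 60.5% carried a T-to-C change in parental cytoplasm, as did 58.2% in KRT19 KO cytoplasm, 68.1% in parental nuclei and 74.2% in KRT19 KO nuclei. All reads of these libraries gave 66.4%, 59.6%, 72.9% and 76.7%. The share depended on the class. In parental cytoplasm it was 51.2% for 3'UTR reads of the 8 genes against 53.4% for all 3'UTR reads, and 66.8% for their intron reads against 74.3% for all intron reads. CAV1 had the lowest share of the genes with over 200 reads in parental cytoplasm, 47.6%.

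By class, 3'UTR reads made up 40.3% of the reads of the 8 genes in parental cytoplasm and 56.8% in KRT19 KO cytoplasm, against 9.16% and 9.82% in the nuclei. Intron reads made up 55.4% and 32.9% in cytoplasm and 88.7% and 85.8% in the nuclei. The whole libraries moved in the same direction, with 3'UTR shares of 31.6% and 47.4% in the cytoplasmic libraries and 5.35% and 5.43% in the nuclear ones.

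Genes of the same pathways were read from lists chosen with earlier results of these data known. Their counts stand against 19.6% higher and 21.4% lower over all genes between the cytoplasmic libraries, and 13.4% and 16.7% between the nuclear ones. Of 10 transcription factors of the transition, ZEB1 and SNAI2 included, 3 had enough reads in the cytoplasmic libraries and 1, ZEB2, was higher in KRT19 KO cytoplasm, while in the nuclei 0 of 2 passed 2-fold. ZEB2, the paralog of ZEB1, had 1388, 3394, 370 and 283 reads in parental and KRT19 KO cytoplasm and parental and KRT19 KO nuclei. SNAI1, TWIST1 and TWIST2, further drivers of the transition, had no cluster in either cytoplasm.

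Of 28 further mesenchymal and invasion genes, 14 were assessed in cytoplasm, with 3 higher and 3 lower in KRT19 KO cells and a median log2 ratio of 0.02, against -0.08 over all genes. These 6 of 14 are close to the 41 percent of all genes. ROR1, a receptor of WNT5A, was lower with 1662 against 840 reads. Of these, 1510 and 698 were intronic, a class with a lower share in KRT19 KO cytoplasm over all genes. S100A4 was higher with 7 against 266 reads, from 1 cluster in each library, the first intronic and the second not. In the nuclei 2 of 11 were higher and 4 were lower. The list held MMP1, MMP2, MMP3 and MMP9, matrix metalloproteinases without a cluster in either cytoplasm.

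Of 8 caveola genes, CAV1 included, 6 were assessed in cytoplasm and 2 were higher in KRT19 KO cells, EHD2 with 164 against 801 reads and SDPR with 87 against 426, and none was lower. Within 3'UTR reads 2 of 5 were higher and 1, CAV1, was lower, against 24.8% and 19.9% of all genes. In the nuclei 0 of 5 passed 2-fold over all reads. Of 11 genes around AXL and MET, both included, 7 were assessed, none was higher and 3 were lower in KRT19 KO cytoplasm. These were MET itself, the AXL ligand gene GAS6 with 664 against 276 reads, and MERTK, a sister receptor of AXL, with 383 against 154. Within intron reads 1 of 7 was higher and 1 was lower, against 20.1% and 13.5% of all genes. Within 3'UTR reads 1 of 4 was higher and 1 was lower, against 24.8% and 19.9% of all genes. The excess of lower genes was thus not seen within either class, where the counts are too small to differ from these shares. In the nuclei 2 of 7, MET and MERTK, were lower and none was higher.

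Of 15 epithelial genes, 3 were assessed in cytoplasm and 2 were higher in KRT19 KO cells, the desmosome gene DSP with 106 against 965 reads and CLDN7 with 14 against 43. In the nuclei 2 of 3 were lower, DSP among them with 57 against 12 reads. Of 5 luminal breast markers 1 was assessed in cytoplasm, ESR1, which was lower with 76 against 26 reads. The counts of these lists are small, and each is a description of 2 libraries.

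The gene most alike to each member was sought by the Euclidean distance over 8 values, the log2 RPM with 1 added of exonic and intronic reads in the 4 libraries, among 11584 genes. TRIM33 was nearest to CD44 at a distance of 1.07, TCF7L2 to MET at 1.43, PIP5K1A to ZEB1 at 1.42 and KPNB1 to AXL at 1.44. XPO7 was nearest to CAV1 at 1.29, RTN3 to CDH11 at 1.64, LARP7 to FN1 at 1.28 and FAM134A to SNAI2 at 0.682. The median distance of all genes from a member lay between 7.29 for FN1 and 14.6 for CD44, and no member was the nearest gene of another.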

How the data were processed

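HNRNPK PAR-CLIP was analysed in 4 libraries of MDA-MB-231 cells, 1 for each condition. The study's methods state that reads were demultiplexed with Bcl2fastq and cutadapt, that identical reads were collapsed before removal of adapters and molecular identifiers, and that alignment to hg19 was followed by cluster calling with PARalyzer in PARpipe. The authors deposited, for each cluster, read counts that were not normalized, together with the unique reads, the T-to-C reads and the conversion locations, and its position, class and gene name. The annotation release is not given in the sources used here. Submitters' processing notes name hg38, but all 1136 cluster sequences of the 8 genes equalled GRCh37, so GRCh37 positions are used. The 17 RNA-seq samples were not analysed here.

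Reads were divided by the library total, or by the total of a class for ratios within 3'UTRs or introns. Intron numbers and 3'UTR lengths come from the canonical transcripts of GENCODE 44 on GRCh37. Shares have Wilson and counts exact Poisson 95% intervals, and ratios exact binomial ones. All cover counting error only, since copies of a molecule are not independent reads. The depth was 5551612 and 6216226 reads in the cytoplasmic libraries and 3537577 and 3252800 in the nuclear ones. Overlap and fold steps were tested on simulated data, and the interval steps were not.

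The 8 genes and all lists were chosen with earlier results of these data known. Named were the 8 genes, the 2 sites of each with the most reads, at most 3 genes per list past 2-fold, by reads, and the gene most alike to each. List genes without a cluster were named after their values were seen. Alternatives covered minimum reads, conversion locations and unique reads of a cluster, the scaling, the added reads, the 50-read minimum, the overlap, the motif and the weighting of classes. Leaving out the leading site of each gene, or the leading cluster of each library from the totals over all reads, or single 3'UTR sites of ZEB1 and CAV1, was chosen after the data were seen. Software versions were matplotlib 3.10.9, pysam 0.24.0, scipy 1.17.1, pandas 2.3.3 and numpy 2.4.6 under Python 3.11.15.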

Additional observations from a re-analysis of the deposited data

Results flagged for a closer look

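In 4 cases the ratio of a gene lay on opposite sides of 1 in the 2 settings of the same contrast with both counting intervals excluding 1, and the difference was not tested, with 1 library for each condition. For ZEB1 the KRT19 KO to parental ratio was 1.14 in cytoplasm and 0.703 in nuclei. The AXL ratio was 1.41 in cytoplasm and 0.587 in nuclei. Within cytoplasmic 3'UTR and intron reads AXL had 0.984 and 0.763, neither of them above 1. The cytoplasm to nucleus ratio of ZEB1 was 0.866 in the parental line and 1.40 after KRT19 loss, and that of CD44 was 1.15 and 0.849 in the same order. The CD44 ratios of KRT19 KO to parental, 0.970 in cytoplasm and 1.32 in nuclei, also lay on opposite sides, but the interval of the first included 1. Each of these ratios is within 2-fold. After scaling by the median ratio over genes, the fraction ratios of ZEB1 and CD44 lay above 1 in both cell lines. Without the ZEB1 3'UTR site of 1189 reads, the cytoplasmic ratio of ZEB1 lay below 1.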

How the results depend on the processing

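No paired analysis was possible because there is 1 library for each condition. Values follow in the order parental cytoplasm, KRT19 KO cytoplasm, parental nuclei, KRT19 KO nuclei. With clusters of at least 10 reads, the 2 cytoplasmic libraries kept 206 and 138 clusters of the 8 genes, 164 sites were shared, T-to-C reads made up 57.6%, 55.4%, 65.2% and 71.2%, 3'UTR reads 43.7%, 61.7% and 9.90% in the first 3 libraries, and cytoplasmic intron reads 52.0% and 27.6%, and 40.6% of clusters in KRT19 KO cytoplasm held a motif word. With clusters of at least 2 conversion locations there were 178, 164, 117 and 83 clusters and 132 shared sites, T-to-C shares of 57.7%, 56.4%, 62.8% and 65.6%, 3'UTR shares of 45.7%, 60.4%, 11.3% and 16.2%, intron shares of 50.1%, 28.8%, 87.1% and 79.4%, and motif shares of 41.6% in parental cytoplasm, 44.4% in parental nuclei and 50.6% in KRT19 KO nuclei. With clusters of at least 2 unique reads the T-to-C share was 58.9% in parental cytoplasm, 64.9% in parental nuclei and 70.4% in KRT19 KO nuclei, the 3'UTR share 41.9% in parental cytoplasm and 10.9% in KRT19 KO nuclei, and the intron share 53.9% in parental cytoplasm. Counting each cluster once gave 3'UTR shares of 10.7%, 16.7%, 4.55% and 3.68% and intron shares of 83.2%, 75.3%, 92.3% and 92.3%. Searching CCC anywhere gave motif shares of 42.2%, 45.8%, 46.9% and 50%.

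The genes past 2-fold between KRT19 KO and parental cytoplasm numbered 3 of 8 under each of the other settings. Over all genes the share lay between 37.0% with unique reads and 50.3% with no minimum of reads. Without the leading site of each gene, a setting chosen after seeing the data, ZEB1, SNAI2 and CAV1 were added, which gave 6. Genes outside the 8 kept their leading sites there, so this number has no like share over all genes. Between the nuclear libraries the number was 3, but 2 of 6 with unique reads, where FN1 could not be assessed, and 4 of 8 with no minimum of reads. Over all genes 17.4% passed with unique reads and 48.1% with no minimum. Between parental fractions, leaving out the leading sites left 1 in place of 3. Between KRT19 KO fractions the number was 1, but 2 with clusters of at least 10 reads and 3 with 2 conversion locations, with median scaling and without the leading sites. Under the main settings 52.1% of all genes passed between parental fractions and 64.6% between KRT19 KO fractions. CDH11 between parental fractions had a log2 ratio of 2.63 where 2 conversion locations were required and of -1.66 where 10 reads were required, and the cause was not tested. SNAI2 between KRT19 KO fractions came to 0.90 without its leading site. Of the single-gene ratios under the settings that leave out no site or cluster by rank, 199 stayed on their side of the 2-fold limit, 8 came past 2-fold and 1 (CAV1 between parental fractions, 0.80 with 2 conversion locations) fell short of it. The single library for each condition limits all of these values.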
